A study of Mus musculus with 6 samples.

Results

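The genes described here encode collagens, basement membrane components, fibroblast and mesenchymal markers, and integrins, the receptors that bind them. They were taken from a list of 37 symbols, and a probe set was used where the platform annotation gives it 1 symbol that is on the list. Of the 37 genes, 36 had a probe set, with 1 probe set each, out of 19938 genes with 1 symbol on the array. Fbn1 was not matched. The 36 genes fall into 7 fibrillar and collagen VI genes, 8 basement membrane genes, 16 mesenchymal genes and 5 integrin genes. Collagen VI forms beaded filaments and not fibrils, and is kept with the fibrillar collagens for brevity.

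Undifferentiated mouse embryonic stem (ES) cells of the parental wild-type line w9.5 (WT) were compared with the Hira-null line Cl34, with genotype Hira-/-, using Affymetrix Mouse Gene 1.0 ST arrays, 3 per line. The HIRA protein is a chaperone that places the variant histone H3.3 on DNA outside replication. Both lines were grown in serum-containing medium with ESGRO, a preparation of the cytokine LIF, and the labels name no treatment that separates them. Cultures were harvested at more than 1 degree of confluence, per the design text, but the confluence behind each array is not labelled. Cl34 is the 1 Hira-null line in the series, so an effect of Hira loss and any other difference of Cl34 from w9.5 cannot be told apart. The arrays are labelled biological replicates without further detail, so p-values reflect the scatter of these arrays, part of which may be technical.

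Fibrillar collagens are triple helices that give connective tissue its tensile strength, and fibroblasts are their main source. Basement membranes are thin sheets built from a laminin network and a collagen IV network, joined by nidogen and the proteoglycan perlecan, on which epithelia and the early epiblast rest. Laminins are trimers of an alpha, a beta and a gamma chain. Integrins are dimers of an alpha and a beta chain that span the membrane and connect this matrix to the actin cytoskeleton. ES cells deposit laminin and collagen IV and attach to fibronectin and laminin through integrins that contain the beta 1 chain.

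Levels are log2 expression values as deposited, and a difference is the Hira-null mean minus the WT mean, with SD over n = 3 arrays per line or, from limma, a standard error (SE). The arrays had medians of 4.93 to 5.02. Probe sets were tested if 3 or more arrays exceeded 3.78, which is the 30th percentile of the table. This left 25142 probe sets and 29 of these genes. All 29 lay above that level on every array, so none entered through 1 line alone. The other 7, all mesenchymal, were dim and were not tested. Transcript levels of Hira itself were 7.49, 7.86 and 7.83 in WT against 7.40, 7.05 and 6.81 in Hira-null arrays, a difference of -0.64 (SE 0.19, limma adjusted p = 0.352). Which part of Hira was deleted is not in the labels, so this reading is a limited check of genotype. Markers of ES cells were high in every array, among them Pou5f1 at 10.91 to 11.58 and Nanog at 10.70 to 11.12.

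None of the 29 tested genes passed the test between the lines. Limma called 0 of 29 with Benjamini-Hochberg adjustment over all probe sets, where 0.00398% of the 25142 probe sets were called. At an unadjusted p under 0.05, 4 genes read lower in Hira-null arrays (the laminin gene Lama1, Vim, Twist2 and the integrin gene Itgb1) and 3 read higher (Nid1, Thy1 and the integrin gene Itga5). At that level 6.06% of all probe sets were lower and 4.06% were higher, which for 29 genes corresponds to between 1 and 2 in each direction. The arrays of the lines did not overlap for 5 of the 36 genes on the lower side and 3 on the higher side, against 7.03% and 6.82% of all 35557 probe sets. Smallest among the adjusted p-values was 0.285, for Thy1.

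The basement membrane genes divided into 6 that read lower in the Hira-null arrays and 2 that read higher, with a median difference of -0.36. The median over all probe sets tested was 0.00. Among the integrins, the beta 1 chain read lower and the alpha 5 chain higher, and the group median was 0.00. Fibrillar and collagen VI genes had a median of 0.01. The 9 tested mesenchymal genes had a median of -0.48, and the median was -0.15 over all 16 with a probe set, since the dim genes lay near 0. In 24 of the 29 genes the range of values within 1 of the lines was wider than the difference between the lines.

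**Figure D1:**
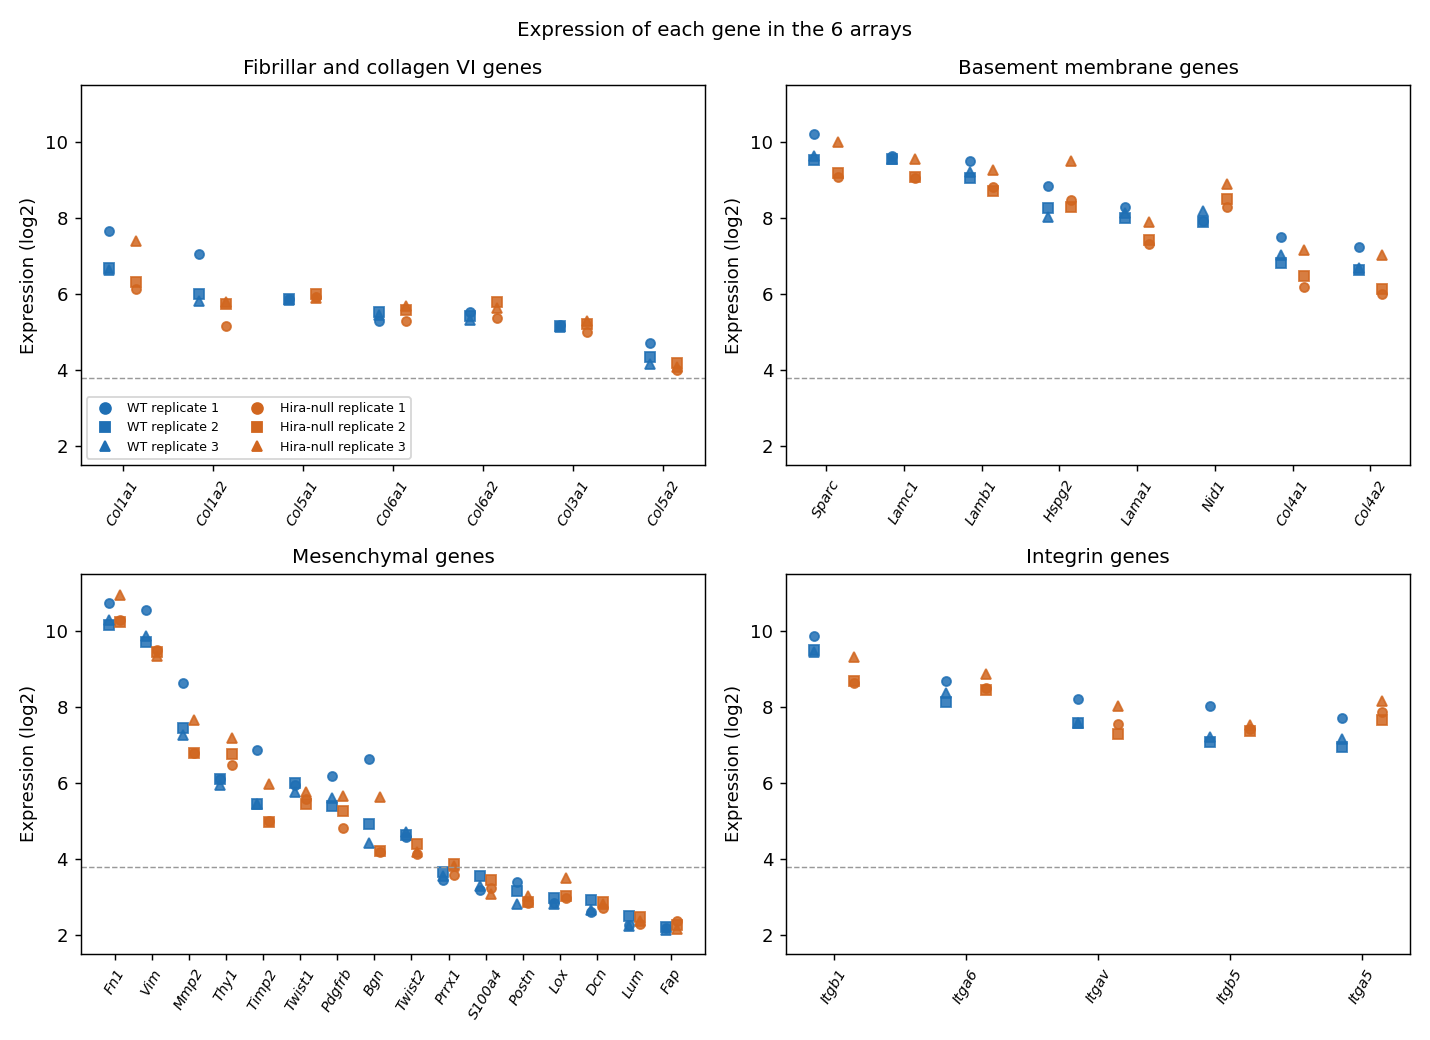
Log2 expression (vertical axis) of the 36 genes in 4 panels by group, with WT arrays in blue and Hira-null arrays in orange and the replicate number shown by the symbol. The dashed line marks 3.78, the level of the filter, and 7 mesenchymal genes lie around or below it. In most genes WT replicate 1 is the highest blue point and Hira-null replicate 3 the highest orange point.

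The next sequences show the 250 bases before the RefSeq start of a pair of basement membrane genes and a pair of integrin genes whose partners differed in opposite directions. Assembly is GRCm38.p6, and each is written 5′ to 3′ on the gene's strand. Capitals mark GC boxes (GGGCGG) and CCAAT boxes (CCAAT) on either strand. Lamb1 encodes a laminin chain and lies at chr12:31265043-31265292 (plus strand). Nid1 encodes nidogen, which binds laminin, and lies at chr13:13437352-13437601 (plus strand). Itgb1 lies at chr8:128685404-128685653 (plus strand) and Itga5 at chr15:103366792-103367041 (minus strand).
Lamb1: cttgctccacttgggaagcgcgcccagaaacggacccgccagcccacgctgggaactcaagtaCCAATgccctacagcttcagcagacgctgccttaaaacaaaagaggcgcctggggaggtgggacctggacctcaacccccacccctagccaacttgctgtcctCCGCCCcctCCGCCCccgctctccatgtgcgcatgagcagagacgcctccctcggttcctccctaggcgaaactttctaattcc
Nid1: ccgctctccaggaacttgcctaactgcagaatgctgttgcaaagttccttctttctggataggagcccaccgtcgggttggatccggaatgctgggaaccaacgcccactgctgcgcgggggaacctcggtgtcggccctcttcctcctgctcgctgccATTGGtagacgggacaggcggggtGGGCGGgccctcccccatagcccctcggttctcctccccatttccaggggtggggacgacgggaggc
Itgb1: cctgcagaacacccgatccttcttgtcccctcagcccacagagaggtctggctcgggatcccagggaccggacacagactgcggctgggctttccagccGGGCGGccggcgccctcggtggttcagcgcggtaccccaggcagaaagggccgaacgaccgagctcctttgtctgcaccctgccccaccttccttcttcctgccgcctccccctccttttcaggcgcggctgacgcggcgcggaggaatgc
Itga5: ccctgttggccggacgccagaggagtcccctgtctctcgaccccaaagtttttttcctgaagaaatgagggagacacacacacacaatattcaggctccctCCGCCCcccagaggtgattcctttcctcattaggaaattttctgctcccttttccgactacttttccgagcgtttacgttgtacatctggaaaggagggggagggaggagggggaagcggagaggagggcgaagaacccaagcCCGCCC
The Lamb1 window held 2 GC boxes and 1 CCAAT box, and the Nid1 window held 1 of each. The Itgb1 window held 1 GC box and the Itga5 window 2. Over the 24 listed genes with an entry, 15 had a GC box, 9 a CCAAT box and 5 a TATA box (TATAAA) in such a window, where a gene with several starts counted if any window held the motif. Counted the same way, 35.4%, 37.5% and 14.3% of all 27025 genes with an entry held these letters, and so did 32.7%, 33.8% and 12.4% of the 32851 single windows. These matches describe the sequence and mark no binding site.

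The laminin genes of the basement membrane group, Lama1, Lamb1 and Lamc1, all read lower in the Hira-null arrays, and none passed the test. Outside the group, the laminin alpha 5 gene Lama5 read higher without overlap, by 0.50 (SE 0.22, limma adjusted p = 0.508). Lama1, the alpha 1 chain of the embryonic laminin (probe set 10446473, chromosome 17), read 8.29, 8.0 and 8.13 in WT against 7.32, 7.42 and 7.90 in Hira-null arrays. The lines did not overlap, and Hira-null replicate 3 came closest to WT. Its difference was -0.59 (SE 0.19, limma adjusted p = 0.371), or 1.51-fold lower, with a 95% interval of -1.03 to -0.16. Lamb1, the beta 1 chain, read 9.5, 9.06 and 9.20 in WT against 8.82, 8.70 and 9.25 in Hira-null arrays, a difference of -0.33 (SE 0.19). Lamc1, the gamma 1 chain, read 9.63, 9.56 and 9.56 against 9.05, 9.08 and 9.56, a difference of -0.35 (SE 0.17). In both genes Hira-null replicate 3 lay within or at the edge of the WT values while the other Hira-null arrays lay below them. The WT arrays of Lamc1 had an SD of 0.04, against 0.29 in the Hira-null arrays.

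Collagen IV, the network-forming collagen of basement membranes, is built from the products of Col4a1 and Col4a2, neighbours on chromosome 8 that are transcribed away from each other. In RefSeq (GRCm38.p6) the annotated starts are so close that the transcripts share 22 bases. Col4a1 read 7.5, 6.82 and 7.02 in WT against 6.18, 6.48 and 7.16 in Hira-null arrays, a difference of -0.51 (SE 0.29, limma adjusted p = 0.631). Col4a2 read 7.24, 6.64 and 6.68 against 5.99, 6.14 and 7.02, a difference of -0.47 (SE 0.30, limma adjusted p = 0.680). Both genes followed the same order of arrays at the top, with WT replicate 1 first and Hira-null replicate 3 second. The log2 ratio of Col4a1 to Col4a2 within an array was 0.26 ± 0.08 over the WT and 0.22 ± 0.10 over the Hira-null arrays (SD, n = 3).

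Sparc, a secreted matrix protein that binds collagen IV (chromosome 11), had its arrays in much the same order as the collagen IV genes. It read 10.20, 9.53 and 9.64 in WT against 9.09, 9.18 and 10.0 in Hira-null arrays, a difference of -0.37 (SE 0.29, limma adjusted p = 0.756). Hira-null replicate 3 lay inside the WT values and the other Hira-null arrays below them. The Sparc difference was -0.16 without WT replicate 1 and -0.66 without Hira-null replicate 3, and those of Col4a1 and Col4a2 were -0.31 and -0.28 without the former and -0.78 and -0.79 without the latter.

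Of the genes for the linkers between the laminin and collagen IV networks, Nid1 and Hspg2 read in the other direction. Nid1 (probe set 10403584, chromosome 13) read 7.92, 7.90 and 8.18 in WT against 8.29, 8.50 and 8.90 in Hira-null arrays, without overlap. Its difference was 0.56 (SE 0.19, limma adjusted p = 0.388), or 1.48-fold higher, with a 95% interval of 0.12 to 1.01. Hspg2, which encodes perlecan, read 8.83, 8.27 and 8.02 against 8.46, 8.29 and 9.5, a difference of 0.38 (SE 0.36) that rested on Hira-null replicate 3. Without that array the difference of Hspg2 was 0.00, and that of Nid1 was 0.40. Nid2, the other nidogen gene and outside the group, did not read higher. It read 9.51, 9.66 and 9.61 in WT against 9.55, 9.54 and 9.42 in Hira-null arrays, a difference of -0.09 (SE 0.12) with overlap.

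Collagen I, the main fibrillar collagen of connective tissue, had lower mean values in the Hira-null arrays for both of its chains, and neither passed. Col1a1, the alpha 1 chain, read 7.67, 6.69 and 6.64 in WT against 6.12, 6.31 and 7.40 in Hira-null arrays, a difference of -0.39 (SE 0.41, limma adjusted p = 0.838). Col1a2, the alpha 2 chain, read 7.04, 5.99 and 5.82 against 5.17, 5.73 and 5.78, a difference of -0.72 (SE 0.34, limma adjusted p = 0.539). Col1a2 did not overlap between the lines, although WT replicate 3 and Hira-null replicate 3 were only 0.04 apart. The chains differed in Hira-null replicate 3, where Col1a1 was high and Col1a2 was not. Leaving out 1 array took the Col1a1 difference from -0.79 (without Hira-null replicate 3) to -0.06 (without WT replicate 1), and that of Col1a2 was -0.35 without WT replicate 1.

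The other collagens of this group had smaller differences, and none passed. Col5a1, a collagen V chain that takes part in starting fibrils, read 5.88, 5.86 and 5.85 in WT against 5.93, 6.0 and 5.89 in Hira-null arrays. These groups did not overlap, yet the difference was 0.08 (SE 0.11, limma adjusted p = 0.894), with the WT arrays within 0.03 of each other. Col6a2, a collagen VI chain, had the largest positive value of the group, reading 5.52, 5.43 and 5.31 against 5.38, 5.80 and 5.62, a difference of 0.18 (SE 0.15). Its partner Col6a1 stood at 0.09 and Col3a1, the collagen III gene, at 0.01. Col5a2 stood at -0.32 (SE 0.17), with WT replicate 1 at 4.70 and every other array between 3.99 and 4.35.

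Among mesenchymal genes, Vim and Thy1 differed in opposite directions. Vim, the intermediate filament protein vimentin (probe set 10469322), read 10.55, 9.71 and 9.87 in WT against 9.5, 9.45 and 9.34 in Hira-null arrays, a difference of -0.61 (SE 0.23, limma adjusted p = 0.424). Hira-null replicate 3 was the lowest Hira-null array for Vim. Thy1, a surface glycoprotein of fibroblasts, neurons and thymocytes (probe set 10584628), read 6.09, 6.09 and 5.93 against 6.46, 6.75 and 7.17. Its difference was 0.76 (SE 0.20, limma adjusted p = 0.285), or 1.69-fold higher, without overlap and with a 95% interval of 0.30 to 1.22.

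Twist1 and Twist2, basic helix-loop-helix factors of mesenchyme, both had lower means in the Hira-null arrays. Twist2 read 4.58, 4.62 and 4.71 in WT against 4.13, 4.39 and 4.18 in Hira-null arrays, a difference of -0.40 (SE 0.13, limma adjusted p = 0.374), without overlap. Its SD was 0.07 in WT and 0.14 in Hira-null arrays, among the smallest in the mesenchymal group. Twist1 read 5.94, 6.0 and 5.75 against 5.56, 5.45 and 5.75, a difference of -0.31 (SE 0.14), and the groups met at 5.75. Pdgfrb, the PDGF receptor of pericytes and fibroblasts, read 6.19, 5.38 and 5.59 against 4.82, 5.25 and 5.65, a difference of -0.48 (SE 0.28).

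The genes with the widest spread within a line were Bgn, Timp2 and Mmp2. Bgn, the small proteoglycan biglycan, read 6.62, 4.91 and 4.41 in WT against 4.19, 4.21 and 5.62 in Hira-null arrays, so its SD of 1.16 and 0.82 exceeded its difference of -0.64 (SE 0.63). Timp2, an inhibitor of matrix metalloproteinases that also helps activate the product of Mmp2, read 6.87, 5.43 and 5.45 against 4.99, 4.97 and 5.97, a difference of -0.61 (SE 0.45). Mmp2, the gelatinase that cleaves denatured collagen and collagen IV, read 8.62, 7.44 and 7.25 against 6.77, 6.77 and 7.64, a difference of -0.71 (SE 0.41, limma adjusted p = 0.632). In all 3 genes WT replicate 1 was highest and Hira-null replicate 3 was second. Leaving out WT replicate 1 brought Bgn to 0.01, Timp2 to -0.13 and Mmp2 to -0.29.

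Fn1, which encodes fibronectin, was close to equal in the lines, at 10.73, 10.15 and 10.29 in WT against 10.28, 10.22 and 10.93 in Hira-null arrays. The difference was 0.09 (SE 0.24, limma adjusted p = 0.949), with a 95% interval of -0.49 to 0.66. With 3 arrays per line, a true difference anywhere inside that interval is compatible with these values. The remaining 7 fibroblast and mesenchymal genes were dim on every array, unlike Col1a1, Col1a2, Pdgfrb, Mmp2 and Vim, which fibroblasts also express. The proteoglycan genes Dcn and Lum read 2.59 to 2.91 and 2.24 to 2.49, and Fap, the fibroblast activation protein gene, 2.12 to 2.36. Postn, S100a4, Lox and Prrx1 read 2.82 to 3.38, 3.08 to 3.55, 2.82 to 3.50 and 3.43 to 3.87. No difference is drawn from these 7.

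**Figure D2:**
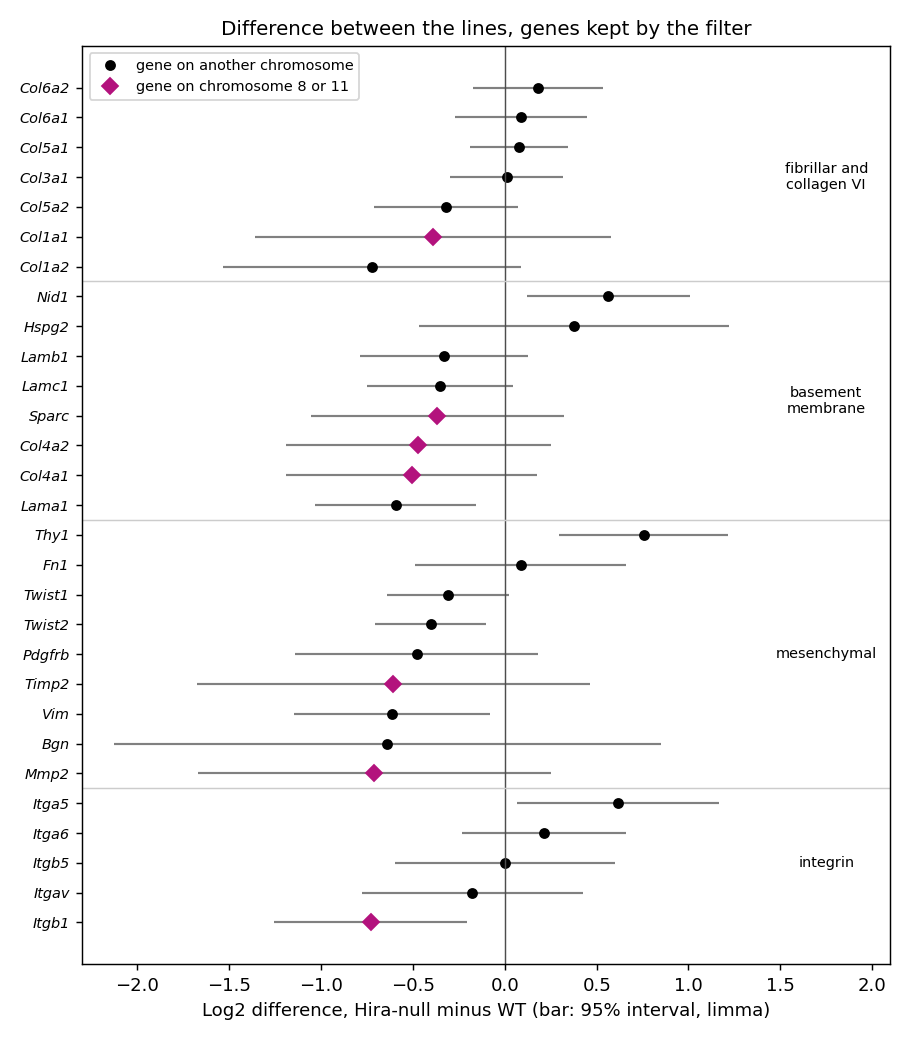
Log2 difference, Hira-null minus WT (horizontal axis), for the 29 tested genes in 4 groups, with 95% intervals from limma as bars. Diamonds mark the 7 genes on chromosomes 8 and 11, all left of 0. The intervals of Lama1, Vim, Twist2, Itgb1, Nid1, Thy1 and Itga5 lie on 1 side of 0 before adjustment, and none of these genes passed after it.

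Of the 5 integrin genes, Itgb1 had the largest difference. It encodes the beta 1 chain, which pairs with many alpha chains to bind fibronectin, laminin and collagen (probe set 10576661, chromosome 8). Values were 9.86, 9.5 and 9.43 in WT against 8.63, 8.67 and 9.30 in Hira-null arrays, without overlap. The difference was -0.73 (SE 0.22, limma adjusted p = 0.359), or 1.66-fold lower, with a 95% interval of -1.25 to -0.21. Hira-null replicate 3 lay 0.65 above the mean of the other Hira-null arrays and just below the lowest WT array.

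Itga5, the alpha 5 chain that forms the main fibronectin receptor with beta 1 (probe set 10433114, chromosome 15), read 7.70, 6.95 and 7.15 in WT against 7.85, 7.64 and 8.16 in Hira-null arrays. The lines overlapped by 1 array, with WT replicate 1 above Hira-null replicate 2. The difference was 0.62 (SE 0.23, limma adjusted p = 0.436), or 1.53-fold higher, with a 95% interval of 0.07 to 1.17. Itga6, the alpha 6 chain of laminin receptors, read 8.67, 8.12 and 8.35 against 8.48, 8.45 and 8.85, a difference of 0.21 (SE 0.19). Itgav, the alpha V chain, stood at -0.18 (SE 0.26) and Itgb5, its beta 5 partner in a vitronectin receptor, at 0.00 (SE 0.25), with WT replicate 1 the highest array for both.

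The genes on chromosomes 8 and 11 all had lower means in the Hira-null arrays. Those on chromosome 8 are Col4a1 (-0.51), Col4a2 (-0.47), Mmp2 (-0.71) and Itgb1 (-0.73), and those on chromosome 11 are Col1a1 (-0.39), Sparc (-0.37) and Timp2 (-0.61). Their median was -0.51, against -0.09 for the 22 tested genes on other chromosomes, of which 11 were lower and 10 higher. Lower values are widespread on these chromosomes in this series, with a median of -0.27 over 809 genes of chromosome 8 and -0.24 over 1351 genes of chromosome 11, against 0.02 over 12988 genes elsewhere. Of the genes on these chromosomes, 82.2% had a difference below 0 and 27.7% were lower at an unadjusted p under 0.05, against 45.6% and 2.73% elsewhere. The part of this chromosome-wide shift in the values of the 7 genes was not tested. Without these 7 the basement membrane median was -0.33, the integrin median 0.11 and the fibrillar median 0.04. The mesenchymal median over genes with a probe set, dim ones included, went from -0.15 to -0.02. Over the tested mesenchymal genes alone it went from -0.48 to -0.40.

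Within each line 1 array stood above the others for most of these genes. WT replicate 1 was the highest WT array for 24 of the 29 tested genes, against 35.7% of all probe sets tested, and Hira-null replicate 3 was the highest Hira-null array for 24 of 29, against 36.2%. Both held for 20 of 29, against 19.6%. The basement membrane group had Hira-null replicate 3 highest in 8 of 8 genes, and the integrin group had both arrays highest in 5 of 5. The median of WT replicate 1 minus the other WT arrays was 0.51, and that of Hira-null replicate 3 minus the other Hira-null arrays was 0.51, while over all probe sets the same medians were 0.00 and -0.02. Genes are not independent replicates, so these counts carry no p-value.

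**Figure D3:**
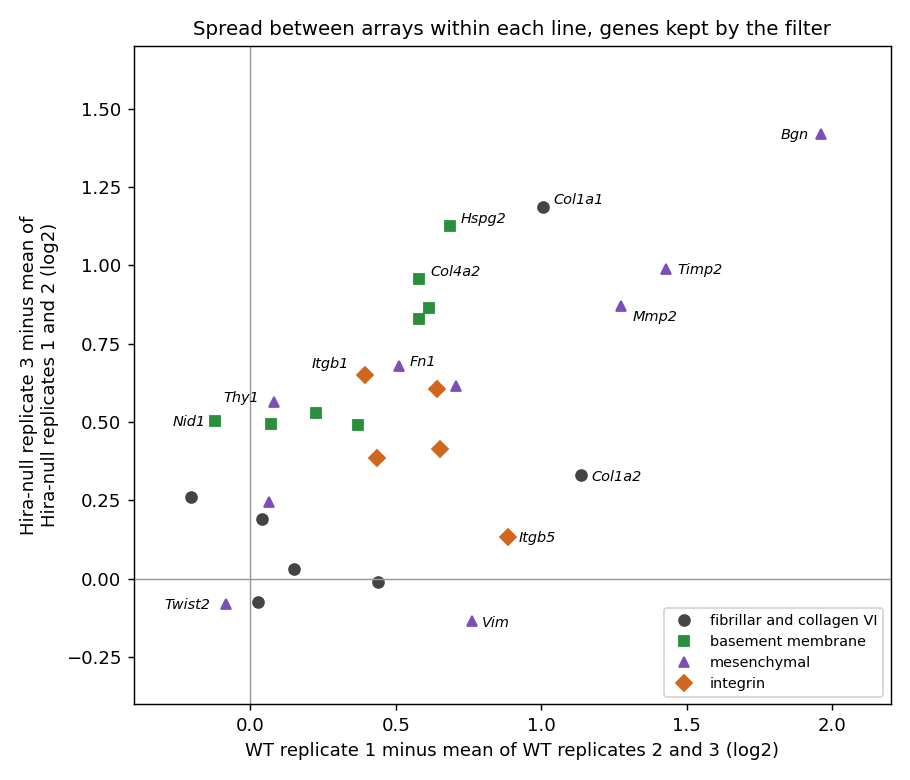
For the 29 tested genes, the log2 value of WT replicate 1 minus the mean of WT replicates 2 and 3 (horizontal axis) against Hira-null replicate 3 minus the mean of Hira-null replicates 1 and 2 (vertical axis), with symbols by group. Most points lie in the upper right, up to 1.96 and 1.42 for Bgn, and Vim is right of 0 but below it on the vertical axis.

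The count of genes at an unadjusted p under 0.05 varied with the arrays used, and in none of these fits did a gene pass with adjustment. Without Hira-null replicate 3 there were 11 lower and 2 higher of 29, against 5.65% and 4.18% of all probe sets. Col4a1, Col4a2, Lamb1, Lamc1, Sparc, Pdgfrb, Mmp2 and Twist1 were lower at that level in this fit and not with all arrays, whereas Vim was not. With both WT replicate 1 and Hira-null replicate 3 left out there were again 11 lower and 2 higher, against 5.6% and 4.59%, and the 11 included all 7 genes on chromosomes 8 and 11. In the same fit 27.7% of all genes on those chromosomes were lower at that level, against 3.0% elsewhere. WT replicate 1 and Hira-null replicate 3 are the arrays that stood above the others for most of the 29 genes. Leaving them out can narrow the scatter of these genes more than that of all probe sets. The shares over all probe sets are therefore not an even comparison for these fits. Without Hira-null replicate 1 there were 1 lower and 2 higher (5.74% and 3.76%), and without Hira-null replicate 2 there were 2 lower and 3 higher (5.97% and 4.89%). Without WT replicate 1 there were 3 lower and 2 higher (4.39% and 3.61%), without WT replicate 2 there were 4 and 1 (4.51% and 2.81%), and without WT replicate 3 there were 5 and 2 (4.53% and 2.88%). With arrayWeights, which gives each array a weight by its scatter, there were 9 lower and 3 higher (6.67% and 5.02%). The lowest weights went to Hira-null replicate 3 (0.36) and WT replicate 1 (0.72). The shares over all probe sets are thus not an even comparison for this fit either. With any 1 array left out, the difference stayed within 1.5 times its value with all arrays for 8 of the 29 genes: Lama1, Lamc1, Nid1, Thy1, Twist1, Twist2, Itgb1 and Itga5. For the other 21 at least 1 array moved it further, WT replicate 1 in 19 genes and Hira-null replicate 3 in 13. Itgb1 was lower and Thy1 higher at an unadjusted p under 0.05 in every fit run, with log2 differences from -0.95 to -0.60 and from 0.57 to 0.92, and adjusted p from 0.148 to 0.625 and from 0.148 to 0.620.

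Since many of these genes varied together between arrays, partners in a complex or a binding pair were also compared within each array as a log2 ratio. This was chosen after the values had been seen. The size of such a ratio depends on the probes, and only its difference between the lines can be read. The log2 ratio of Itga5 to Itgb1 was -2.16, -2.55 and -2.28 in WT against -0.78, -1.03 and -1.14 in Hira-null arrays, a difference of 1.35, or 2.54-fold. Itga6 to Itgb1 was -1.22 ± 0.15 in WT against -0.27 ± 0.16 in Hira-null arrays, and Itgav to Itgb1 was -1.81 ± 0.15 against -1.26 ± 0.16 (SD, n = 3). None of these overlapped, and all 3 share Itgb1, which lies on chromosome 8, where lower values are widespread in this series. The part of that chromosome-wide shift in these ratios was not tested. Nid1 to Lamc1 read -1.71, -1.66 and -1.38 in WT against -0.76, -0.58 and -0.66 in Hira-null arrays, a difference of 0.92, or 1.89-fold, also without overlap.

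Several chains of 1 trimer had close ratios in both lines. The ratio of Lamb1 to Lamc1 differed by 0.02, that of Col4a1 to Col4a2 by -0.04 and that of Col6a1 to Col6a2 by -0.09, each less than its SD within a line, and Mmp2 to Timp2 differed by -0.10. Lama1 was lower relative to its partners by -0.26 (Lamb1) and -0.24 (Lamc1), without overlap. Col5a1 to Col5a2 differed by 0.40 without overlap, and Col1a1 to Col1a2 by 0.33 with overlap, the latter set by 1.62 in Hira-null replicate 3. Of 13 pairs, 7 did not overlap, against 18.1% of all 115497201 pairs of the 15199 genes that passed the filter. The 7 are not independent, since 3 share Itgb1 on chromosome 8 and 2 share Lama1. The pairs were also picked with the values known, and the share over all pairs does not take chromosomes into account. For each of the 7 the exact two-sided permutation test gave p = 0.1, which is the lowest value possible with 3 arrays per line (adjusted p = 0.186 over the 13 pairs), so no pair passed.

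**Figure D4:**
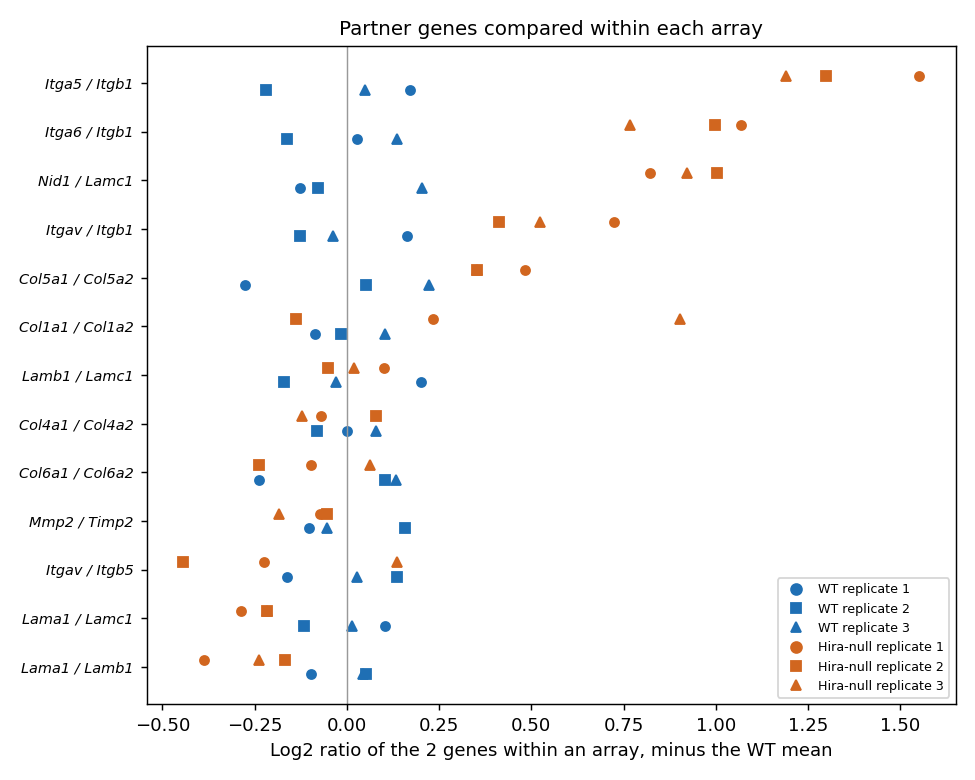
Log2 ratio of 2 partner genes within an array, shown minus the WT mean of that ratio (horizontal axis), for 13 pairs, with WT in blue, Hira-null in orange and the replicate number as the symbol. The Itga5 to Itgb1, Itga6 to Itgb1 and Nid1 to Lamc1 ratios of the Hira-null arrays lie right of all WT arrays, while the Col4a1 to Col4a2 and Lamb1 to Lamc1 ratios overlap.

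Further matrix and adhesion genes were read from 7 lists with 143 genes on the array, of which 124 were tested. Limma called 0 of 124. At an unadjusted p under 0.05, 8 were lower and 7 higher, against 6.06% and 4.06% of all probe sets. List medians of the tested genes ran from -0.06 to 0.12. Among 25 other collagens, Col18a1, the collagen XVIII of basement membranes, had the smallest p, at 7.70, 7.55 and 7.70 in WT against 8.35, 8.38 and 8.34 in Hira-null arrays, a difference of 0.71 (SE 0.12, limma adjusted p = 0.220). Both lines were tight for this gene and did not overlap. Col9a3 and Col13a1 followed at 0.30 and 0.17.

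The proteoglycan gene Agrn (0.61) and the laminin alpha 5 gene Lama5 (0.50), of the further basement membrane genes, stood higher, and Frem2 stood lower (-0.49). None of these passed. Among genes of collagen assembly, P4hb (-0.65, SE 0.13), a prolyl hydroxylase subunit on chromosome 11, and P3h1 (-0.33) read lower and Crtap, the partner of P3h1, read higher (0.52, SE 0.15). Of other matrix proteins, Tgfbi (0.87) and Vcan (0.59), which encodes versican, were higher and Mfap5 (-0.44) lower.

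Among proteases and inhibitors, Timp1, a metalloproteinase inhibitor, read 7.40, 7.60 and 7.49 in WT against 7.05, 6.79 and 7.04 in Hira-null arrays (-0.54, SE 0.13), and Mmp14, the membrane protease that activates the product of Mmp2, stood at 0.43 (SE 0.12). Adam12 had the next smallest p in that list, at -0.13. The integrin genes outside the group with the smallest p were Itgal (-0.79, SE 0.15), an alpha chain of leukocyte integrins, Itgb3 on chromosome 11 (-0.67) and Itga9 (0.76). Proteins at the cytoplasmic side of integrins had Bcar1 on chromosome 8 at -0.41, Actn4 at 0.39 and Vasp at 0.30. Limma adjusted p-values of the genes with the smallest p named from these lists ran from 0.220 to 0.838.

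Markers of other cells that could supply matrix varied between the arrays as well. Of the 16 fibroblast or feeder markers outside the group, 11 were tested, and 1 was lower and 2 higher at an unadjusted p under 0.05, where 6.06% and 4.06% of all probe sets were. Those with the smallest p were Tgfbi (0.87), Nt5e (0.82) and Ccn2 (-0.99). The median difference was -0.11 over the 11 and 0.06 over all 16, so its sign depends on the dim markers. Their summed level (log2 of the sum of linear values) was 9.95 to 11.29 over WT and 9.55 to 10.92 over Hira-null arrays. Such a sum mostly follows the brightest markers, led in WT replicate 1 by Acta2 (9.57) and Ccn2 (9.00), and does not measure fibroblast content. WT replicate 1 was the highest WT array for 8 of the 11 and Hira-null replicate 3 the highest Hira-null array for 7. Over all probe sets tested these shares were 35.7% and 36.2%. The same counts were 11 and 15 of 19 tested further basement membrane genes, and 6 and 8 of 25 other collagens. Acta2, a contractile gene picked for its wide range, read 9.57, 7.40 and 7.05 in WT against 6.0, 5.49 and 8.68 in Hira-null arrays. Nt5e had the opposite order in the Hira-null line, at 6.49, 5.87 and 5.42, and S100a6 was lowest in WT replicate 1, at 6.31. Cav1, Cd44, Mgp, Tbx15 and Cdh11 were too dim to be tested. Parietal and primitive endoderm, which secretes much laminin and collagen IV, had 13 of 13 markers tested, 3 lower and 0 higher at that level (6.06% and 4.06% of all probe sets), a median of -0.22 and a summed level of 9.97 to 10.48 over WT and 9.56 to 10.07 over Hira-null arrays. Cubn (-1.48), Dab2 (-0.83) and Gata6 (-0.55) had the smallest p. In the other direction, Lrp2 (0.42, without overlap), Stra6 (0.26) and Foxq1 (0.10) read higher, and the rest of the list read lower.

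Endothelial markers had 5 of 6 tested, and limma placed 0 lower and 0 higher at an unadjusted p under 0.05, with summed levels of 8.81 to 9.09 over WT and 8.72 to 9.63 over Hira-null arrays. ES cell markers had 8 of 8 tested, 0 lower and 0 higher by the same limma fit at that level, a median of -0.05 and summed levels of 13.93 to 14.01 and 13.77 to 14.21, where Hira-null replicate 3 was lowest (median deviation -0.34). The part of other cell types in the matrix and integrin values was not tested, and in these bulk samples fewer cells of a type and less RNA per cell cannot be told apart.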

How the data were processed

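Total RNA of 6 ES cell cultures (3 WT, 3 Hira-null) was extracted with Trizol and hybridised to 1-colour arrays, per the labels' protocols. The deposited table holds log2 values for 35557 probe sets, and the submitters' processing notes name GCRMA, which corrects background and normalizes between arrays, with no version. Build and annotation behind them are not stated there or in the file. Values run from 1.14 to 14.03, from which the log2 scale was taken, and were used as deposited by the authors. Such normalization would hide a shift shared by most genes.

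Of 35557 probe sets, 21789 had 1 symbol, 1621 several and 12147 none here. Symbols were updated through Entrez identifiers (21698 matched, GRCm38.p6). Where a gene has several probe sets, the one of highest mean stands for it. The lines were compared with limma 3.58.1 (lmFit, then eBayes, with two-sided p-values, in R 4.3.3) on all 6 arrays, and p-values of the 25142 retained probe sets were adjusted by Benjamini-Hochberg at a threshold of 0.05. The fit was also run on simulated data with known changes. Noise there was independent between genes, so the run does not cover the deviations that these genes shared between arrays. Precision is limited by the number of arrays, and the median SE was 0.17 over all probe sets and 0.23 over the 29 genes.

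The genes and lists were chosen with earlier results of these data known. Of the 37 genes, every array is given for those that did not overlap between lines or had an unadjusted p under 0.05. The same holds for those with the highest mean or the largest difference in either direction in a group. Every array is also given for further genes where the comparison turned on single arrays. For most genes named from the further lists only the difference is given. From each further list up to 3 genes with the smallest p were named. Acta2, S100a6, Pou5f1, Nanog, Nid2, Lrp2, Stra6 and Foxq1 were named after their values were seen. Promoter windows came from RefSeq and covered 24 of the 37 genes.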

Additional observations from a re-analysis of the deposited data

How the results depend on the processing

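In all alternatives run, 0 of these genes were called by limma: no filter, a filter at the 50th percentile (4.99), quantile normalization, median centring, eBayes with trend and with trend and robust, arrayWeights, the replicate number as a block, the mean of probe sets, each array left out, WT replicate 1 and Hira-null replicate 3 left out together, and genes of chromosomes 8 and 11 left out. The number of probe sets called, 1 with all arrays, was 2 with the stricter filter, 2 with median centring, 5 with arrayWeights, 0 with the replicate block, 0 without WT replicate 1 and Hira-null replicate 3, and 0 to 41 with 1 array left out, where 41 came without Hira-null replicate 2. The mesenchymal median was -0.15 over all 16 genes with a probe set and -0.48 over those kept by the stricter filter. It was also -0.48 over the 9 genes kept by the main filter, which already drops the 7 dim genes. The stricter filter further drops Twist2, Bgn and, among the collagens, Col5a2. With 1 array left out the medians ran from -0.59 to -0.24 for basement membrane, -0.05 to 0.08 for fibrillar, -0.24 to -0.04 for mesenchymal and -0.18 to 0.30 for integrin genes. Signs turned for 5 tested genes. Without WT replicate 1 and Hira-null replicate 3, Col3a1 was -0.04 and Col6a1 -0.065. With 1 array left out, Col3a1 ran from -0.053 to 0.10, Col6a1 from 0.003 to 0.203, Fn1 from -0.14 to 0.26, Bgn from -1.11 to 0.013 and Itgav from -0.38 to 0.037, while Itgb5, at 0.00 with all arrays, ran from -0.18 to 0.30.

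Whether arrays of the same replicate number were handled together is not in the labels, and correlations over 3 arrays per line cannot settle it. Deviations from the line mean correlated over probe sets at -0.34, 0.17 and -0.10 for numbers 1, 2 and 3, and WT replicate 1 correlated best with Hira-null replicate 3 (0.44). With the replicate block the same 4 lower and 3 higher genes stood at an unadjusted p under 0.05, beside 5.15% and 3.29% of all probe sets.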
